A study of Drosophila melanogaster with 3 samples.

Results

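The introns described here are the minimal introns of a pooled assembly from fly head samples, which were selected on their length alone. A member was any unique intron (chromosome, strand, start and end) between consecutive exons of a multi-exon isoform model whose length was 80 nt or less. Of 12981 unique introns, 7145 (55.04%, 95% Wilson interval 54.2 to 55.9) were members, and the other 5836 are called longer introns. Because length chose the members, the lengths below are given as a description without a test, and tests concern position, retention, flanks and sequence, which the selection did not use, and whether a length is divisible by 3, which the limit of 80 nt does not set. The models came from FLAM-seq, a full-length mRNA and poly(A) tail sequencing method, applied to 3 samples of heads from 3-day-old adult flies of the w1118 strain, a white-eyed laboratory strain of Drosophila melanogaster. These 3 untreated samples form 1 group, each library started from 4 µg of total RNA, and the models were built from their merged reads. There is therefore 1 assembly of 5980 models (5128 of them multi-exon), with no value per sample and no read depth per model, and intervals cover counting error only. Of 16 genes listed as markers of head cell types, 10 had a model and 6 had none. Markers of photoreceptors (ninaE, Rh3 and Rh4 with a model, trp and norpA without), neurons (nSyb with, elav and Syt1 without), glia (Eaat1 and Gs2 with, repo without) and muscle (Act88F and up with, Mhc without) were each found in part, and Yp1 and Lsp2 had a model. Genes named for accessory gland or seminal fluid proteins, such as Acp26Aa, Acp26Ab and Sfp24F, also had members. A model in this assembly therefore does not by itself place a gene in a head cell type.

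An intron is recognised by its 5′ splice site (donor), an internal branch point adenosine and its 3′ splice site (acceptor). In flies many introns are so short that the splicing machinery is thought to pair both splice sites across the intron (intron definition), while long introns are usually recognised through the exons between them (exon definition). A minimal intron that stays in the mRNA is called retained, and it can then be read by the ribosome if it lies in the coding sequence. Long reads show the retained and the spliced state of an intron together with every other intron of the same mRNA.

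The following introns show how little sequence such an intron holds between its splice sites. All coordinates are 1-based on dm6, all sequences are the reference genome read 5′ to 3′ on the transcribed strand, and all these introns lie between coding exon ends. Capitals mark the first and last dinucleotide of the intron and, where one starts and ends within the window searched for it (10 to 50 nt before the intron end, in introns of 55 nt or more), the branch point motif CTAAC or CTAAT. The first set holds the 6 retained introns that lead the order used for naming, and it comes from 2 genes. Cyp313a1, a cytochrome P450 gene on chromosome 3R, gave chr3R:14521260-14521337, chr3R:14521789-14521849, chr3R:14521923-14521995 and chr3R:14522123-14522172 (plus strand). Sodh1, which encodes a sorbitol dehydrogenase, gave chr3R:7052650-7052707 and chr3R:7054082-7054139 (plus strand).
Cyp313a1, intron of 78 nt: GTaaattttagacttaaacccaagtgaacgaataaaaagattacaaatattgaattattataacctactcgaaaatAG
Cyp313a1, intron of 61 nt: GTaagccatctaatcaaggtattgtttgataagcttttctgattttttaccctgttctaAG
Cyp313a1, intron of 73 nt: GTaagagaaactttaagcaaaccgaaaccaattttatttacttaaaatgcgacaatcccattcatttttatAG
Cyp313a1, intron of 50 nt: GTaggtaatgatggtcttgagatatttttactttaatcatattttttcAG
Sodh1, first intron shown, 58 nt: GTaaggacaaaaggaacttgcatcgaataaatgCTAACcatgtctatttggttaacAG
Sodh1, the other intron, 58 nt: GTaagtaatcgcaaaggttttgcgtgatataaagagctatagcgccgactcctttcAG

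The next set shows introns of the most frequent length, 62 nt, in genes with many members. GluRIIA (chr2L:5555615-5555676, plus strand) encodes a glutamate receptor subunit of the neuromuscular junction, Nepl16 (chr3R:25110036-25110097, minus strand) a neprilysin-like peptidase and ACXA (chr2L:12923193-12923254, plus strand) an adenylyl cyclase. GC content of these ran from 29.0% in Nepl16 to 46.8% in ACXA, so that a common length went with different base content. A further intron of 62 nt chosen in the same way, in RhoBTB, had a GC content of 50% and is not printed.
GluRIIA: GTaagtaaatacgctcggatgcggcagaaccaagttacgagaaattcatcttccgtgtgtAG
Nepl16: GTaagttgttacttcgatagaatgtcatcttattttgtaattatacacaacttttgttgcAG
ACXA: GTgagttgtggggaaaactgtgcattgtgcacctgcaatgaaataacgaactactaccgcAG

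Introns near the lower limit of the size class are shown from 3 genes, and not every intron of these lengths is printed. They lie in trc (chr3L:19832725-19832769, minus strand), which encodes the kinase Tricornered, in Gfat1 (chr3R:4133417-4133463, plus strand), which encodes an enzyme of hexosamine synthesis, and in ACXA (chr2L:12924496-12924543, plus strand). They measured 45, 47 and 48 nt. In Gfat1 5 models spliced the intron and 1 retained it.
trc: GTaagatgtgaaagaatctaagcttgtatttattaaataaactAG
Gfat1: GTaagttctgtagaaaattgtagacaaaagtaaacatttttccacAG
ACXA: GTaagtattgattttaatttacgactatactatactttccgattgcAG

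The last set shows 3 members that share sequence, and was chosen after their values were seen. The phosphoserine-binding adaptor gene 14-3-3epsilon had 1 donor joined to 3 acceptors in steps of 3 nt, all starting at position 18248152 of chromosome 3R on the plus strand and ending at 18248214, 18248217 and 18248220. The intron of 66 nt was spliced by 2 models, the introns of 63 and 69 nt by 1 model each, and 1 further model retained the whole stretch.
14-3-3epsilon, 63 nt: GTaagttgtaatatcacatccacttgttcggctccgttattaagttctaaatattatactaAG
14-3-3epsilon, 66 nt: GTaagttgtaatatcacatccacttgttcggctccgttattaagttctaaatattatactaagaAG
14-3-3epsilon, 69 nt: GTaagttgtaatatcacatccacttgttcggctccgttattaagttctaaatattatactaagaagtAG

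Member lengths formed a narrow peak. They ran from 23 to 80 nt with a median of 61 nt (quartiles 57 and 66), and 62 nt was the most frequent length with 504 introns. A total of 4482 members (62.7%, 61.6 to 63.8) measured 55 to 65 nt, 6368 (89.1%) measured 70 nt or less and 49 (0.686%) were shorter than 50 nt. The 5 shortest annotated members with GT and AG ends measured 45 nt in trc, 46 nt in the 5′UTR of CG12589 and in the coding sequence of Ih, a channel gene, and 47 nt in CG18324 and Gfat1. The longer introns were spread over a far wider range, with a median of 435 nt (quartiles 170 and 1447.5) and a maximum of 211034 nt. This longest intron was assigned to RpL7A, which spans only 6530897 to 6533348 of the X chromosome. It therefore reaches far outside its gene, may be an error of the model, and was not checked further.

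The threshold at 80 nt cut the tail of this peak rather than a gap. Just inside it, 64, 67, 70, 47 and 31 introns measured 76, 77, 78, 79 and 80 nt, and just outside it 45, 27, 30, 35 and 32 introns measured 81, 82, 83, 84 and 85 nt. Over these 5-nt classes 279 introns lay inside and 169 outside. In the plot of intron lengths the peak lies between 50 and 75 nt and is followed by a low plateau.

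**Figure D1:**
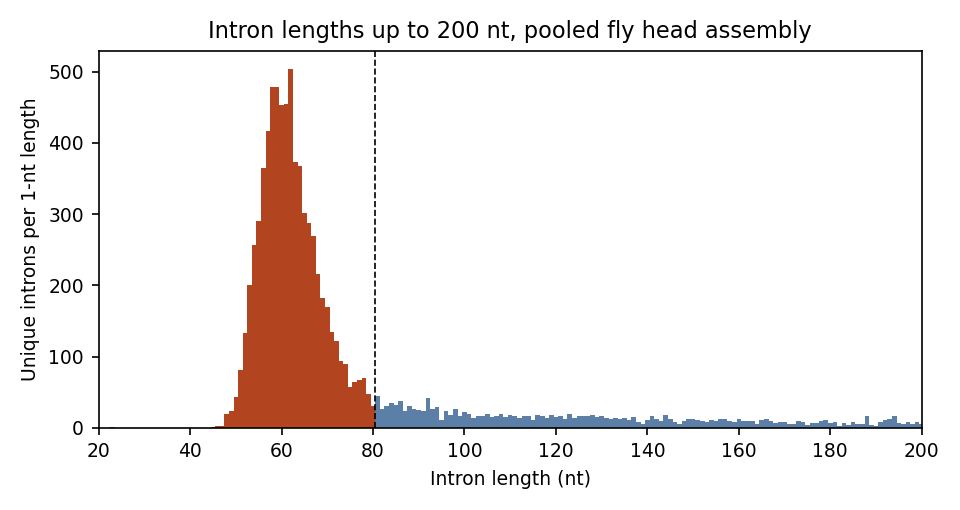
Number of unique introns at each length from 20 to 200 nt. Introns of 80 nt or less (7145) are in red and longer ones in blue, and the dashed line marks the threshold. The highest bar is at 62 nt (504 introns).

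Members were numerous but held little sequence. At least 1 member occurred in 4121 of 5128 multi-exon models (80.4%, 79.3 to 81.4) and in 3300 of 4038 genes with an intron (81.7%). In 1427 genes (35.3%) every intron was a member. All members together covered 442788 of 11737161 intron nt, or 3.77%, a total that includes the doubtful intron of 211034 nt. Most genes had few of them, with 1439 genes holding 1 member, 875 holding 2, 470 holding 3 and 516 holding 4 or more. Of the members 7144 were introns of the Ensembl annotation, and 5986 (83.8%) were seen in 1 model only.

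The 10 genes with the most members held 9 to 13 of them. The potassium-chloride cotransporter gene kcc had the most, with 13 members among 21 introns (55 to 66 nt). The glutamate receptor subunit gene GluRIID followed with 12 of 13 introns (55 to 64 nt, median 57), its single longer intron measuring 82 nt. The gene hlk also had 12 members, among 19 introns that reached 11933 nt. GluRIIA had 10 members of 11 introns, with a longer intron of 91 nt, so that in both glutamate receptor genes all introns were short. The calcium-dependent protease gene CalpA and the unconventional myosin gene Myo95E had 11 each. CG11069, Nepl16 and casp, a negative regulator of the immune deficiency pathway, had 10 each, and in Nepl16 these were all introns of the gene. ACXA had 9 of 11, a count that other genes, among them CG11961, CG33934, CG9416 and inaC, shared.

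Members lay away from the start of the transcript. Among first introns of models with several introns 35.9% (34.2 to 37.5) were members, among internal introns 58.1% (56.8 to 59.4) and among last introns 67.3% (65.6 to 69.02). Single introns of 2-exon models were members in 63.4% of cases (751 of 1184), and 163 members had different positions in different models and were left out of these classes. First introns made up 1148 of 6231 members in the tested classes (18.4%) against 2053 of 5250 longer introns (39.1%), an odds ratio of 0.352 (0.323 to 0.383, two-sided Fisher's exact test, adjusted p = 9.43e-134 over 7 tests). Last introns made up 31.8% of members and 18.3% of longer introns (odds ratio 2.08 with a 95% interval from 1.91 to 2.28, adjusted p = 4.69e-62 by Fisher's exact test). Introns of a gene are not independent replicates, and these p-values describe this assembly. Compared only within genes, by an exact stratified Mantel-Haenszel test, the odds ratios were 0.219 for first and 2.43 for last introns.

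In models with at least 6 introns the share of members was lowest at the first intron and higher further along the transcript. It was 15.2% at the first intron, where the median intron length was 792.5 nt, 43.3% at the second (131 nt), 52.8% at the third (73 nt), 58.8% at the fourth and 58.7% at the fifth (69 nt each) and 62.5% at the sixth (67 nt). Members themselves had a median of 61 nt at first, internal and last positions alike. The length limit that defines members holds these medians close together, so they cannot show whether intron length differs with position. Among introns of every length the medians were 211 nt at first, 69 nt at internal and 65 nt at last positions.

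**Figure D2:**
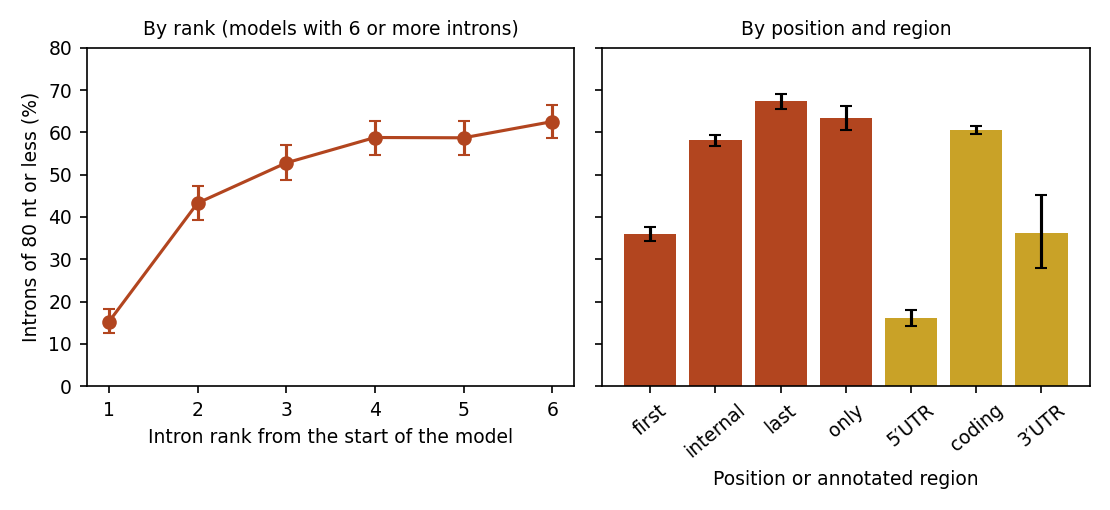
Share of introns of 80 nt or less, in percent with 95% Wilson intervals. On the left it is shown by intron rank from the start of models with 6 or more introns, from 15.2% at the first to 62.5% at the sixth, and on the right for first, internal, last and only introns (red) and by annotated region (yellow), where coding introns reach 60.6% and 5′UTR introns 16.1%.

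The position of members went with the coding sequence. Of the introns between coding exon ends 60.6% (6866 of 11337) were members, compared with 16.1% (230 of 1428) in 5′UTRs and 36.2% (42 of 116) in 3′UTRs. Coding flanks were found for 96.1% of annotated members and 77.6% of annotated longer introns (odds ratio 7.14, interval 6.23 to 8.20, adjusted p = 2.31e-234 by Fisher's exact test). The first position and the 5′UTR overlap, so the position was also compared among coding introns alone, a comparison added after seeing the data. First introns were still rarer among coding members than among longer coding introns (odds ratio 0.595, interval 0.540 to 0.657, adjusted p = 7.01e-25 by Fisher's exact test), and last introns more frequent (odds ratio 1.70, 1.55 to 1.86, adjusted p = 4.54e-30). Median member length was 61 nt in coding sequence, 64 nt in 5′UTRs and 62 nt in 3′UTRs.

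Exons next to members were somewhat longer inside the transcript and shorter at its end. Internal exons between 2 members had a median of 214 nt (quartiles 141 and 394, 3237 exons), and those between 2 longer introns 180 nt (119 and 320.2, 2048 exons). Exons with a longer intron upstream and a member downstream had a median of 218 nt, and exons of the reverse arrangement 181 nt, so that the median followed the downstream intron. Exons shorter than 100 nt made up 9.55% (8.58 to 10.6) of those between members and 17.5% (15.9 to 19.2) of those between longer introns, and exons over 300 nt made up 35.6% and 26.9%. The first exon had a median of 222.5 nt before a member and 212 nt before a longer intron. The last exon had a median of 545 nt (330 to 887.8) after a member and 699 nt (427.2 to 1092.5) after a longer intron. These medians were described without a test, since exons of a gene are not independent.

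**Figure D3:**
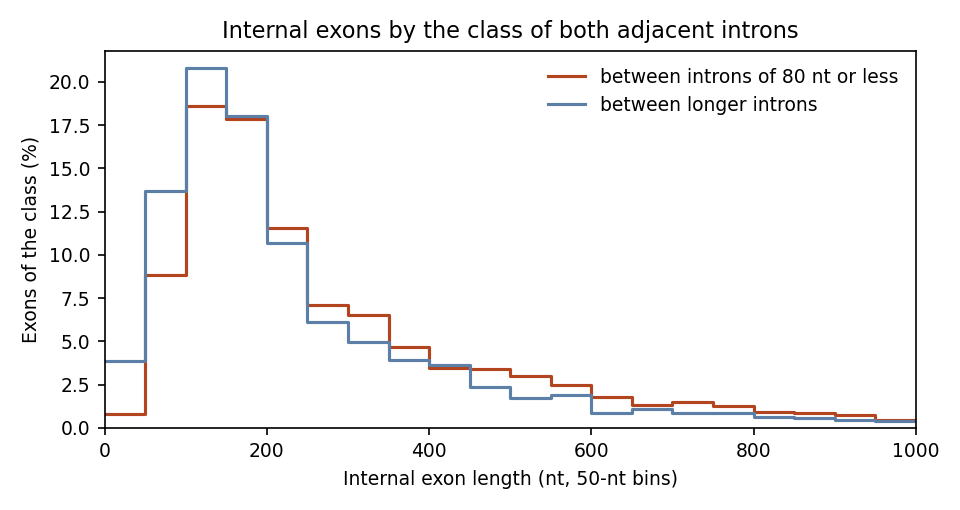
Lengths of internal exons in 50-nt bins, as a percent of the exons of each class, up to 1000 nt. The red line stands for exons between introns of 80 nt or less (median 214 nt) and the blue line for exons between longer introns (median 180 nt), which has the higher share below 100 nt.

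Splice sites of members were canonical, and their bodies were poor in GC. GT and AG ends were found in 7079 members (99.1%), GC and AG ends in 61 (0.854%) and other ends in 5. Longer introns had GT and AG ends in 99.2% of cases. Junctions had been corrected with short-read data before assembly, so these shares also reflect the processing. Median GC content was 35.2% (29.3 to 41.1) inside members and 51.0% in the 50 nt of exon on each side, and 95.7% of members had a lower GC content than these flanks. Longer introns had a median of 37.9% with flanks of the same 51.0%.

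The sequence signals differed by a few percentage points between the classes. The donor GTAAGT, the perfect intronic match to the fly consensus, was present in 23.1% of members and 26.0% of longer introns (odds ratio 0.856, interval 0.790 to 0.929, adjusted p = 2.76e-04 by Fisher's exact test), and GTGAGT in 18.0% and 22.7%. Within genes the GTAAGT odds ratio was 0.984 (exact stratified test, adjusted p = 0.884), so no difference was shown between introns of the same gene. The acceptor CAG closed 63.8% (62.6 to 64.9) of members and 73.8% (72.7 to 74.9) of longer introns, while TAG closed 30.3% and 21.7%.

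A branch point motif lay closer to the acceptor in members. CTAAC or CTAAT was searched on the transcribed strand only, 10 to 50 nt before the intron end, in introns of 55 nt or more. It was present in 21.4% of 6382 members and 24.1% of longer introns (odds ratio 0.857, interval 0.786 to 0.933, adjusted p = 4.99e-04 by Fisher's exact test), but within genes the odds ratio was 1.01 (exact stratified test, adjusted p = 0.884). A window of the same width in the neighbouring exon held it in 2.84% and 3.36% of cases. Among introns with the motif, a median of 21 nt (quartiles 18 and 26) followed the branch adenosine in 1363 members and 25 nt (21 and 31) in 1405 longer introns. A match is a description of these letters and not a mapped branch point.

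Retention could be assessed where another model of the same gene spanned the intron, which was the case for 1435 members (20.1%) and 1971 longer introns (33.8%). Over all 3406 such introns 14.8% were retained by another model. Members were retained in 198 of 1435 cases (13.8%, 12.1 to 15.7), near this background, and longer introns in 306 of 1971 (15.5%, 14.0 to 17.2), a difference that did not pass the test (odds ratio 0.871, interval 0.714 to 1.06, adjusted p = 0.171 by Fisher's exact test). The comparison depended on which longer introns were used. Within the 219 informative genes members were retained less often (odds ratio 0.522, 0.392 to 0.690, exact stratified test, adjusted p = 4.40e-06), and likewise against introns of 81 to 1000 nt (odds ratio 0.562, Fisher's exact test, adjusted p = 2.24e-08). Against introns over 300 nt, chosen after seeing the data, members were retained more often (odds ratio 1.33, interval 1.05 to 1.69, adjusted p = 0.0198 by Fisher's exact test).

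By length, retention was lowest among members of 65 to 69 nt and among introns over 1000 nt. The share was 25.0% (17.7 to 34.1) at 50 to 54 nt, 14.7% at 55 to 59 nt, 13.3% at 60 to 64 nt, 8.21% (5.54 to 12.02) at 65 to 69 nt and 14.2% at 70 to 80 nt. It was 26.0% (19.7 to 33.3) at 81 to 100 nt, 24.5% above 100 and up to 300 nt, 19.3% above 300 and up to 1000 nt and 2.94% over 1000 nt. The intervals of the 50 to 54 nt and 65 to 69 nt classes did not overlap, and differences between length classes were not tested. Of the 12 assessable members under 50 nt, 4 were retained. Among these 4 was the stretch of 23 nt in Xbp1, which had CA and TG ends and is counted in all retention figures here.

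**Figure D4:**
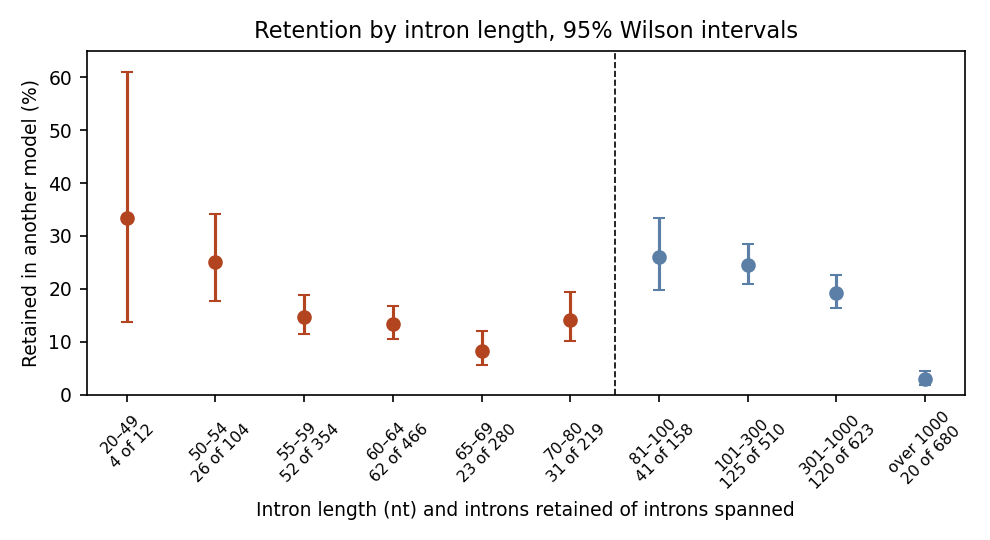
Share of introns retained by another model of the gene, by intron length, with 95% Wilson intervals and the counts under each class. Members (red, left of the dashed line) fall from 25.0% at 50 to 54 nt to 8.21% at 65 to 69 nt, and longer introns (blue) from 26.0% at 81 to 100 nt to 2.94% over 1000 nt.

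Position and region went with retention among members. First introns were retained in 50 of 147 cases (34.0%, 26.8 to 42.0), internal ones in 73 of 741 (9.85%, 7.91 to 12.2), last ones in 48 of 344 (14.0%) and only introns in 16 of 40 (interval 26.4 to 55.4%). Members with different positions in different models were retained in 11 of 163 cases (6.75%, 3.81 to 11.7). Only members spliced by several models can fall in this class, so the position classes are not independent of retention. The shares of first and only introns therefore depend in part on this rule. Members in 5′UTRs were retained in 29 of 79 cases (36.7%, 26.9 to 47.7), those in 3′UTRs in 6 of 19 (31.6%, 15.4 to 53.99) and coding members in 163 of 1336 (12.2%, 10.6 to 14.1). Longer introns of 5′UTRs were retained in 18.9% (15.7 to 22.7) of cases, those of 3′UTRs in 37.0% (24.5 to 51.4), longer first introns in 18.6% and longer only introns in 9.09% (3.59 to 21.2). Retention was also counted more often where more models spanned a member, from 11.4% with 2 models to 21.8% with 4 or more. Longer introns rose likewise, from 10.6% to 25.4%. Of the assessable introns, 174 of 1435 members and 417 of 1971 longer introns were spanned by 4 or more models. None of these differences was tested. A member with the branch point motif was retained in 8.25% (5.70 to 11.8) of cases and one without it in 14.1% (12.1 to 16.4), with intervals that did not overlap. In longer introns the shares were 14.2% and 16.0%, with overlapping intervals. Members with a GTAAGT donor were retained in 10.6% of cases and those with another donor in 14.75%, again with overlapping intervals. The contrasts by motif and donor were not tested either.

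The 198 retained members came from 169 genes, and 187 of them (94.4%) were retained by 1 model. For the 114 that were spanned by 2 models this count is fixed, since the other model had to splice the intron. Of 190 retaining models 170 held 1 member as exon and 20 held 2 or 3. These 20 include models in 14-3-3epsilon, CG13124, CG3760, CG1116, CG6503, Pdh and prel. There the members held were overlapping forms of 1 intron, so the model retained 1 stretch and not separate introns. Only 15 retained members were covered by a single-exon model, and the models that retained the others had spliced at least 1 intron elsewhere. An annotated transcript retained the same intron for 53 of the 198 (26.8%), compared with 19 of 1237 members (1.54%) that were spanned and not retained here.

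Cyp313a1 had the most retained members, 4 of its 6 introns, all of which were members. Its 6 models had 7, 6, 6, 5, 5 and 4 exons. The first spliced all 6 introns, and the others held 1, 1, 2, 2 and 3 of them as exon. The introns of 61 and 73 nt were each retained by 3 models, the intron of 50 nt by 2 and the intron of 78 nt by 1, so that several combinations occurred in this P450 gene. Each of the 4 introns, printed above, brings an in-frame stop codon.

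In Sodh1, 3 introns of 58, 58 and 53 nt were each retained by 1 of 5 models and spliced by 4. Among the small adaptor and signalling genes, Crk, an adaptor with Src homology domains on chromosome 4, had introns of 61 and 59 nt that were each retained by 1 of 4 models. The Arf-like GTPase gene Arl4, also on chromosome 4, had 2 retained members of 56 and 52 nt with a GC content of 17.9% and 19.2%. Hexo1, a beta-hexosaminidase gene, differed from these in that its last intron of 62 nt was spliced by 1 model and retained by 3. More retaining than splicing models were found for 5 of the 198 retained members.

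Further genes with 2 retained members were the sideroflexin gene Sfxn1-3, the glutathione transferase gene GstE12, the glutaminyl cyclase gene QC, the serpin gene Spn77Ba, the transcription elongation kinase gene Cdk9, the P450 gene Cyp4p1, the photoreceptor dehydrogenase gene Pdh, the sulfotransferase gene St3, and Fibp, prel, sip3, CG13124, CG10680, CG3739, CG3760, CG10553, CG1116, CG6503 and CG8834. In Cyp4p1 and Fibp all introns were members (7 and 8). In CG13124, CG3760, CG1116, CG6503, Pdh and prel the 2 retained members overlapped, as in 14-3-3epsilon, because they were alternative forms of 1 intron. These counts of 2 therefore stand for 1 retained stretch.

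Members were mostly spliced in 1 way. Of the 1435 assessable members 75.7% (73.5 to 77.9) were spliced in the same way in every spanning model, compared with 41.3% (39.1 to 43.5) of longer introns. Another splice site was used in at least 1 model for 9.41% of members and 27.9% of longer introns, and 3.69% and 26.3% lay inside a longer intron of another model. Of the assessable introns, 417 of 1971 longer ones and 174 of 1435 members were spanned by 4 or more models. Longer introns thus more often had many models in which to differ, and the shares were not compared at equal numbers of models. These shares were described without a test.

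When 2 members shared a donor, their acceptors were mostly 3 nt apart. There were 39 such neighbouring pairs, of which 21 (53.8%, 38.6 to 68.4) differed by 3 nt and 32 (82.1%) by a multiple of 3. Among the 30 pairs counted as coding 29 kept the reading frame in this way. Steps of 16 and 17 nt occurred in pairs labelled as coding, so this count depends on how a coding pair is defined. Genes with a step of 3 nt in coding sequence included, beside 14-3-3epsilon, the potassium channel gene Irk2 (50 and 53 nt), the protein kinase A regulatory subunit gene Pka-R1 (72 and 75 nt), Pdh (56 and 59 nt) and the neuropeptide gene natalisin (66 and 69 nt), which were named after their values were seen. When 2 members shared an acceptor, 3 of 16 pairs differed by 3 nt and 8 by a multiple of 3. A total of 109 members (1.53%) overlapped another member and so shared its sequence.

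Most members would stop translation if retained. Of 6866 coding members 5396 (78.6%, 77.6 to 79.5) brought a stop codon in the frame of the annotated coding sequence. Only 357 (5.20%, 4.70 to 5.75) had no stop and a length divisible by 3, and could be read through in frame. Lengths divisible by 3 made up 32.3% of coding members and 33.9% of longer coding introns, a difference that did not pass the test (odds ratio 0.931, interval 0.859 to 1.01, adjusted p = 0.0919 by Fisher's exact test). The interval allows an odds ratio as low as 0.859.

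Stop codons were more frequent in members whose length keeps the frame. An in-frame stop was present in 83.9% (82.3 to 85.4) of 2219 members with a length divisible by 3 and in 76.05% (74.8 to 77.3) of the other 4647, at medians of 60 and 61 nt. In the other 2 reading frames of the same introns the shares were 80.6% against 79.0% and 76.7% against 77.4%, with overlapping intervals, so that the gap was seen in the frame of translation. Among the 163 retained coding members 76.7% (69.6 to 82.5) had an in-frame stop and 7 were open with a length divisible by 3, compared with 79.8% (77.4 to 82.0) of 1173 coding members that were spanned and not retained. This contrast between frames was noticed in the data and was not tested.

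The share of minimal introns varied between groups of genes around the 55.04% of all genes. Groups are described by counts only, and their lists were chosen with results of these data known. It was high for the spliceosome (21 of 26 introns, 80.8%, 62.1 to 91.5), with 4 members in the branch site recognition gene Sf3b2 and 3 each in Phf5a and Prp31, which left none of these genes with a longer intron. Mitochondrial ribosomal proteins had 59 members of 75 introns (78.7%), led by mRpL38 (4) and by mRpL37 and mRpL47 (3 each). Proteasome subunits had 39 of 51 (76.5%), with 3 in Rpn9 and in the ATPase gene Rpt4. Odorant-binding proteins had 24 of 33 (72.7%), with 3 in Obp69a, and aminoacyl-tRNA synthetases 14 of 20, with 4 in ArgRS and LeuRS.

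Other groups stood near or below the share of all genes. Oxidative phosphorylation subunits had 58 members of 104 introns (55.8%), among them 4 each in ND-49, ND-B17.2 and UQCR-C1. Phototransduction genes had 59 of 112 (52.7%), led by the eye protein kinase C gene inaC with 9 of 10 introns, the scaffold gene inaD with 7 of 8 and the channel gene trpl with 7 of 13. Vacuolar proton pump subunits had 25 of 49 (51.0%), Rab GTPases 24 of 50 (48.0%), chaperonin subunits 3 of 6 and translation initiation factors 38 of 82 (46.3%), where all 5 introns of eIF2Balpha and all 4 of eIF4E3 were members.

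Cytoplasmic ribosomal proteins had 54 members of 178 introns (30.3%, 24.1 to 37.5), a lower share than that of the mitochondrial ribosomal proteins, and their members had a median of 66.5 nt. Cuticular proteins had 7 of 26 (26.9%), synaptic vesicle and release genes 24 of 89 (27.0%) and muscle genes 25 of 107 (23.4%, 16.4 to 32.2). Even these groups held genes with several members, such as the dynamin gene shi (8 of 19 introns), CaMKII (5 of 15) and the alpha-actinin gene Actn (4 of 11). Retained members numbered 4 of 15 assessable members in phototransduction genes, 3 of 11 in oxidative phosphorylation and none of 15 in the proton pump, beside 198 of 1435 (13.8%) over all genes.

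**Figure D5:**
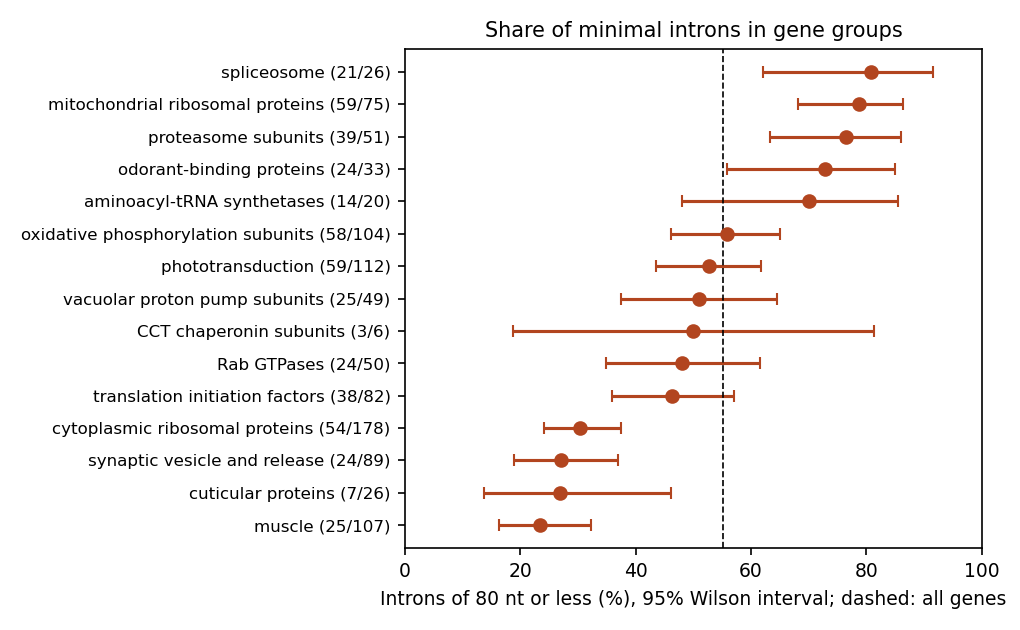
Share of introns of 80 nt or less in 15 groups of genes, in percent with 95% Wilson intervals and with members and introns in brackets. The dashed line marks all genes (55.04%). The points run from 23.4% in muscle genes to 80.8% in the spliceosome.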

How the data were processed

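RNA of 3 head samples was made into FLAM-seq libraries (poly(A)-selected RNA, tailed, reverse transcribed, amplified and sequenced on a PacBio instrument). After merging the reads of all samples, the authors aligned them (STARlong) and assembled isoforms (FLAIR), a step that corrected junctions with short-read data, required 5′ ends near known promoters and kept models with at least 2 full-length reads. The deposited values are exon start and end coordinates of 1 pooled assembly on dm6. Among the tools in the notes of the submitters is featureCounts, and what it was used for is not given. Merging, junction correction and the read minimum can hide rare splice forms.

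Unique introns were taken from consecutive exons. Of 4038 gene identifiers 4005 were in Ensembl release 115, and the other 33 were named through an annotated intron they share. Sequences came from the RefSeq dm6 genome. An intron was assessable when at least 1 model spliced it and another model of the gene reached at least 1 nt beyond both of its ends, and retained when an exon of a model did so. Single-exon models counted whatever their recorded strand. Position classes used introns with 1 position over all models. Shares have 95% Wilson intervals. Fisher's exact tests were two-sided, with conditional 95% intervals, adjusted by the Benjamini-Hochberg method over 7 tests and called at 0.05. Comparisons within genes used an exact stratified Mantel-Haenszel test in R 4.3.3. The remaining steps used Python 3.11.15, SciPy 1.17.1 and NumPy 2.4.6. The steps were tested on simulated gene models.

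The members and gene lists were chosen with earlier results of these data known. Named genes are the 10 with the most members (ties in alphabetical order), 25 with the most retained members, those with the 5 shortest annotated GT and AG introns, and up to 3 genes per list with the most members; other names were added after their values were seen and are marked so. Alternatives were other length limits, other sets of longer introns, a comparison within genes, and other rules for retention.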

Additional observations from a re-analysis of the deposited data

How the results depend on the processing

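Under the alternatives 41 values were classed as unchanged, which for odds ratios meant the same direction and side of the threshold. This number includes counts of members, which have neither a direction nor a threshold. It also includes the limit to annotated introns for coding flanks (7.14) and for lengths divisible by 3 (0.931). Those 2 could not differ, since the main tests already used annotated introns only. The exceptions concerned retention and 2 sequence signals, all given as odds ratios of members against longer introns. For retention (main value 0.871) the ratio was 1.03 when introns of 100 nt or less formed the class (adjusted p = 0.772, Fisher's exact test), 0.562 against introns of 81 to 1000 nt, 0.522 within genes and 0.812 when only multi-exon models could retain an intron (adjusted p = 0.0486, Fisher's exact test). It was 1.33 against introns over 300 nt and 1.06 in genes with exactly 2 models (adjusted p = 0.674, Fisher's exact test), both chosen after seeing the data. The retained share of the longer introns fell from 26.0% at 81 to 100 nt to 2.94% over 1000 nt, so that the comparison changes with the longer introns included. Within genes the branch motif ratio was 1.01 and the GTAAGT ratio 0.984, and the cause was not tested. No paired analysis was possible because the 3 samples form 1 group and were merged before assembly, and for the same reason no sample could be left out. Depth per model is unknown, so an intron called spliced in every model may be retained in mRNAs that were not sampled.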

Other observations

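Minimal introns were less frequent on the X chromosome and on chromosome 4. The share of members was 44.5% (629 of 1414 introns, 41.9 to 47.1) on X and 36.6% (67 of 183, 30.0 to 43.8) on chromosome 4, compared with 51.4% on 3L, 56.3% on 2L, 57.2% on 3R and 60.7% on 2R. Members of the X had a median of 65 nt (quartiles 60 and 69) and those of chromosome 4 a median of 59 nt (56 and 63), while the other arms had medians of 61 or 62 nt. Introns of a chromosome share genes and base composition, and these differences were not tested.

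The shortest member did not have the ends of a spliceosomal intron. It measured 23 nt, had CA and TG ends, and lay in the coding sequence of Xbp1, whose mRNA is known to be cut by the endoplasmic reticulum stress sensor Ire1 and religated without the spliceosome. In the pooled assembly 1 model lacked this stretch and 1 model held it, so that both states were present among the models. The other 4 members without GT or GC donors and AG acceptors measured 69 nt in TER94, 58 nt in dj, 67 nt in the rhodopsin gene Rh6 and 72 nt in CG14414, each in 1 model. The single member that was not an annotated intron measured 50 nt and lay in the translation initiation factor gene eIF4E1, again in 1 model. All these introns were named after their values were seen.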
